A study of Rattus norvegicus with 6 samples.

Results

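The miR-181 family was followed in cultured rat cardiac fibroblasts and in the exosomes released by them. Every entry of the deposited count table named miR-181a, b, c or d (rno-miR-181a-5p, rno-miR-181a-1-3p, rno-miR-181a-2-3p, rno-miR-181b-5p, rno-miR-181b-1-3p, rno-miR-181b-2-3p, rno-miR-181c-5p, rno-miR-181c-3p, rno-miR-181d-5p and rno-miR-181d-3p) was taken, with any hairpin copy number and either arm, which gave 10 of the 728 listed mature miRNAs. The cells came from hearts of Wistar rats at postnatal day 1 to 2 and were grown with 10% fetal bovine serum. For exosome collection they were kept for 48 h in medium with 1% serum freed of exosomes, and the vesicles were pelleted from that medium by ultracentrifugation after centrifugation and filtration. The 2 groups were 3 exosome libraries, labelled 1, 2 and 3, and 3 fibroblast libraries, labelled 1, 2 and 4, with no treatment or genotype that differed between them. One exosome column carried no number and is called the unnumbered exosome library. The labels do not say that the libraries of a group came from separate cultures or animals, so each p-value reflects spread among these libraries alone, which may be technical. In such bulk RNA, less of a miRNA per vesicle and fewer vesicles that carry it cannot be told apart.

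A miRNA is cut from a hairpin precursor as a pair of strands, named 5p and 3p after the arm they come from. One of them is usually retained in the silencing complex and guides it to messenger RNAs through its seed, bases 2 to 8. The miR-181 family is conserved among vertebrates and is best known from T-cell and B-cell development, and miR-181c has been studied in the heart, where it is found in mitochondria. In mammals the family is encoded as pairs of neighbouring hairpins, so the same mature 5p strand of miR-181a or miR-181b can come from either of 2 loci, while the 3p strands differ between copies and carry the copy number in their names.

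The 5p strands of the 4 letters are shown because their differences set what a read can tell apart (RefSeq, build GRCr8, seed in capitals). They are written from the 5′ end.
miR-181a-5p: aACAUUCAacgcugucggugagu
miR-181b-5p: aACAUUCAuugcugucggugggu
miR-181c-5p: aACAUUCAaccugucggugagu
miR-181d-5p: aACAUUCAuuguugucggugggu
All 4 share the seed ACAUUCA, which no other of the 655 listed miRNAs with a RefSeq sequence carried. Counted from the 5′ end, miR-181a-5p and miR-181b-5p differ by A9U, C10U and A21G. miR-181b-5p and miR-181d-5p differ by C12U alone. miR-181c-5p equals miR-181a-5p without the G at position 11, so these 2 share their first 10 and their last 12 bases. The rule by which the authors assigned reads to such near-identical entries is not given in the sources used here, and the split between letters is uncertain to that extent.

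The 3p strands differ far more, and 5 of the 6 had a RefSeq entry.
miR-181a-1-3p: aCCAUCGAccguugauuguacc
miR-181c-3p: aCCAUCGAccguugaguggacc
miR-181a-2-3p: aCCACCAAccguugacugu
miR-181b-1-3p: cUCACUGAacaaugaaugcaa
miR-181d-3p: cCACCGGGggaugaauguca
Only miR-181a-1-3p and miR-181c-3p share a seed (CCAUCGA), and they differ by U16G and U19G. None of the 5 carries the seed of the 5p strands.

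In GRCr8 the hairpins lie in 3 pairs, each on the plus strand. Pair 1 is on chromosome 13, with miR-181a-5p at chr13:52037081-52037103 and miR-181b-5p at chr13:52037263-52037285, inside the long non-coding RNA gene LOC108352541. Pair 2 is on chromosome 3, with miR-181a-5p at chr3:43025601-43025623. The miR-181b-2 hairpin of that pair also holds the miR-181b-5p sequence, starting at its base 15, and both hairpins lie within the bounds of the protein-coding gene Nr6a1 and of the non-coding gene LOC120101539. Pair 3 is on chromosome 19, with miR-181c-5p at chr19:40888314-40888335 and miR-181d-5p at chr19:40888484-40888506, within no annotated gene. The 2 hairpins of pair 3 are 77 bases apart. A further listed miRNA, miR-3570, is annotated on the minus strand at chr13:52037121-52037142 and is the exact reverse complement of miR-181a-1-3p.

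Total counts were 113129 to 120224 in the exosome libraries and 2439559 to 12508651 in the fibroblast libraries. A single other miRNA, miR-873-3p, took 84.9%, 87.3% and 90.1% of the counts of exosome libraries 1, 2 and unnumbered, and 0.391% to 2.37% of those of the fibroblast libraries. Shares of exosome counts for the family, the 5p strands and the fibroblast markers are therefore given on both totals, with miR-873-3p and without it, where 18164, 14338 and 11825 counts were left. The 6 fibroblast and mesenchymal markers (miR-143-3p, miR-145-5p, both arms of miR-199a, miR-214-3p and miR-21-5p) were all detected in every fibroblast library and summed to 34.1% to 38.5% of counts there. Cardiomyocyte markers (6 of 6 listed) summed to at most 0.0172% of fibroblast counts, blood markers (6 of 7 listed) to at most 0.0383%, endothelial markers (2 of 2) to at most 0.0152%, epithelial markers (5 of 5) to at most 0.0261% and neural markers (4 of 4) to at most 0.0855%. In exosome libraries 1, 2 and unnumbered the fibroblast markers summed to 0.114%, 0.140% and 0.861% of counts, and to 0.754%, 1.10% and 8.66% without miR-873-3p. The other lists summed in the exosome libraries without miR-873-3p to at most 0.0771%, 0.216%, 0.973%, 0.231% and 1.84%, in the same order. Of the 6 cardiomyocyte markers, 3 or 4 were at 0 in each exosome library. The part of these differences in the results was not tested.

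The 10 members together held 4.69%, 3.36% and 4.97% of the counts of fibroblast libraries 1, 2 and 4, a mean of 4.34% ± 0.858 (SD, n = 3). They held 0.225%, 0.189% and 0.338% of the counts of exosome libraries 1, 2 and unnumbered, a mean of 0.251% ± 0.0775 (SD, n = 3). The family was thus lower in each exosome library than in any fibroblast library on this total. With miR-873-3p left out of the total, the exosome shares were 1.49%, 1.49% and 3.40% and the fibroblast shares 4.75%, 3.38% and 5.09%. Then the unnumbered exosome library lay within the fibroblast range, and the other exosome libraries below it. The family sums are given as values without a test.

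The first comparison asked which miR-181 members differed between exosomes and their parent cells. In a fit over all 698 miRNAs that passed the count filter, which all 10 members did, miR-181b-5p, miR-181a-1-3p, miR-181d-5p and miR-181c-5p fell below fibroblasts in exosomes (quasi-likelihood test of edgeR, scaling by the trimmed mean of M-values or TMM, Benjamini-Hochberg adjusted p under 0.05). That is 4 of 10 members, where 18.6% of all tested miRNAs were called lower and 29.9% were called in either direction. DESeq2 called 5 members lower, the same 4 and miR-181a-5p, against 17.2% of miRNAs. No member was called higher by edgeR or by DESeq2, where edgeR called 11.3% of all miRNAs higher. At an unadjusted p under 0.05 edgeR had 6 members, 0 of them higher. The median log2 fold change was -1.80 over the members and -0.15 over all tested miRNAs. In CPM (counts scaled to a common library size with TMM), 6 members had every exosome library below every fibroblast library, against 24.6% of tested miRNAs, and 0 had the reverse, against 14.6%. The TMM factors, which multiply the library size, were 1.34, 1.13 and 0.433 in exosome libraries 1, 2 and unnumbered. Fibroblast libraries 1, 2 and 4 had 0.968, 1.99 and 0.792. The low factor of the unnumbered exosome library raised its CPM against the other exosome libraries.

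**Figure D1:**
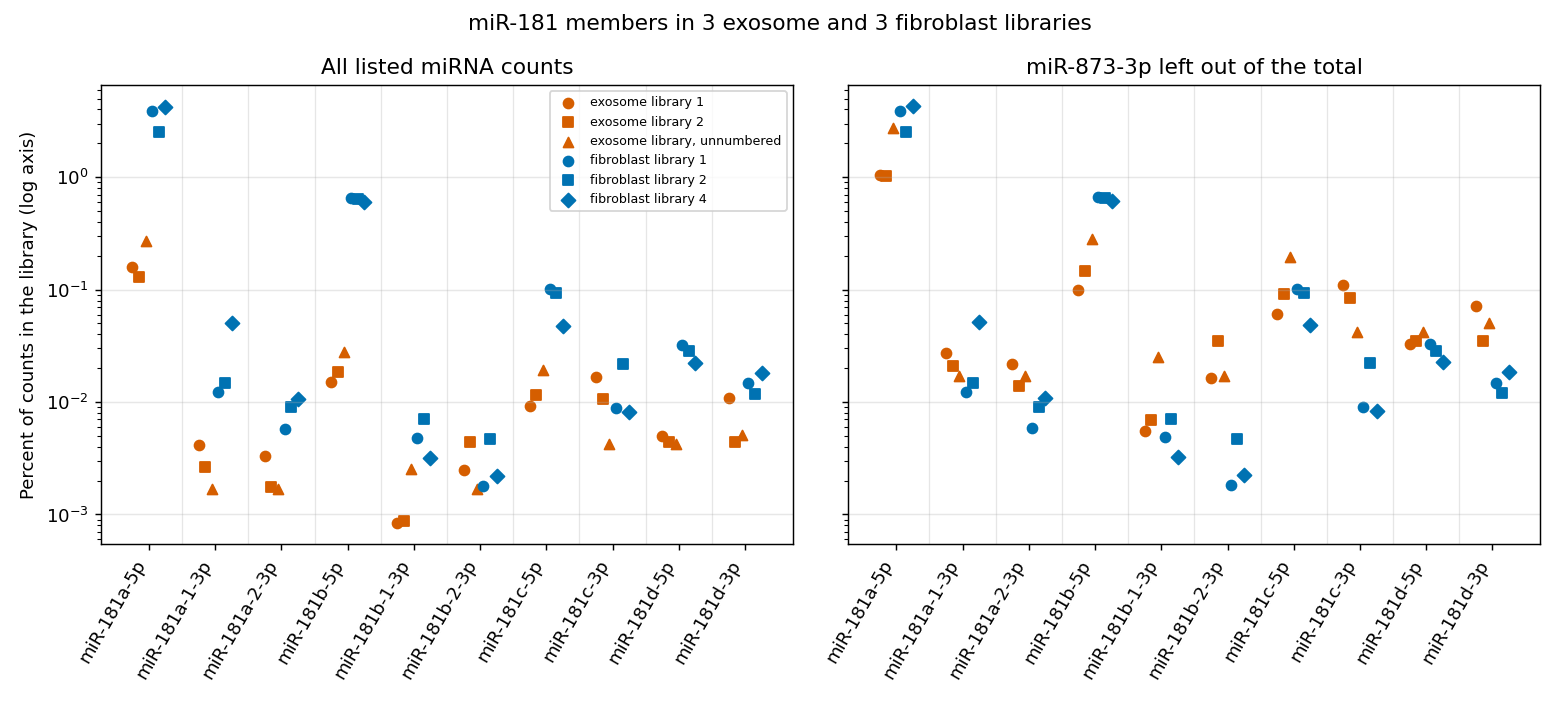
Percent of library counts (log axis) for each miR-181 member in 3 exosome libraries (orange) and 3 fibroblast libraries (blue), 1 point per library, with all listed miRNA counts as the total on the left and with miR-873-3p left out on the right. On the left 8 members lie lower in all exosome libraries than in any fibroblast library, on the right miR-181b-5p alone does so and 5 members lie higher.

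The choice of total turned the direction of several members, while the log2 fold changes of miR-181a-5p, miR-181b-5p and miR-181a-1-3p stayed below 0 under all 15 alternatives. In plain percent of counts, 8 members were lower in exosomes with no overlap and 0 higher, where 24.7% and 5.77% of all listed miRNAs were. With miR-873-3p left out of the total, 1 member, miR-181b-5p, was lower with no overlap and 5 were higher, where 8.67% and 48.1% of all miRNAs were. In an edgeR fit on that total without TMM scaling, chosen after seeing the data, the median log2 fold change of all miRNAs moved to 2.37 and that of the members to 0.77. That fit called miR-181b-5p lower (log2 fold change -1.89, edgeR adjusted p = 0.017) and miR-181c-3p and miR-181b-2-3p higher (log2 2.60 and 2.95, adjusted p = 0.0038 and 0.031). It gave miR-181c-5p and miR-181d-5p positive log2 fold changes of 0.48 and 0.38, which were not called. miR-181a-5p and miR-181a-1-3p were not called in that fit either (log2 -1.17 and -0.24, edgeR adjusted p = 0.19 and 0.82). Relative to the median of all miRNAs, the member median stayed below it under this scaling too.

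**Figure D2:**
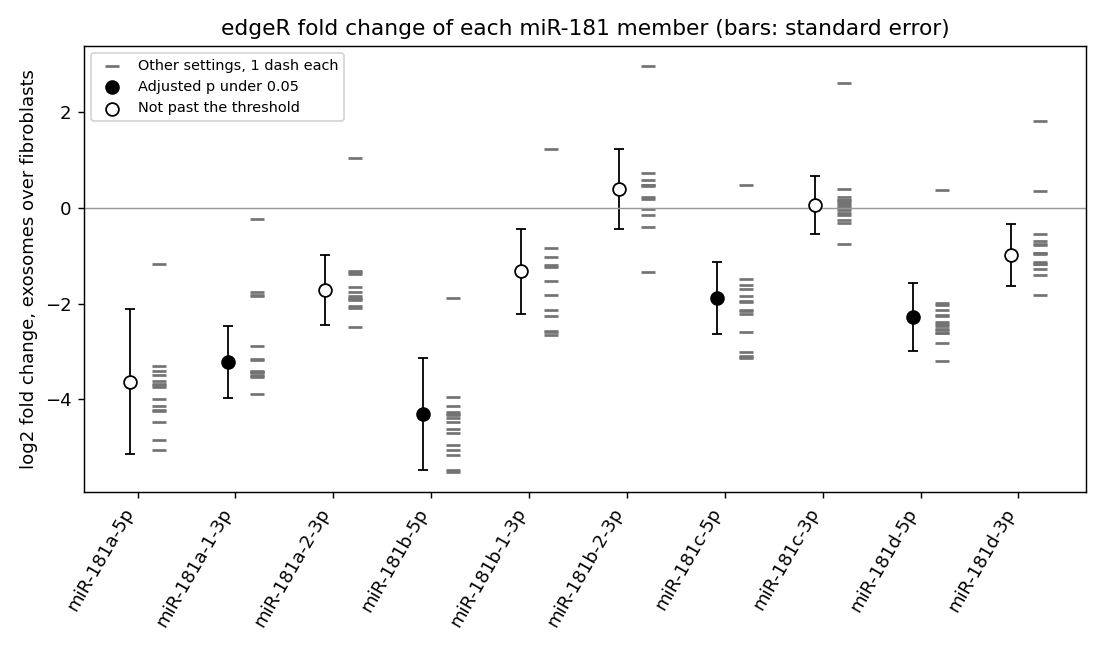
log2 fold change of each member, exosomes over fibroblasts, from the edgeR fit on raw counts (circles, filled where the adjusted p was under 0.05; bars are the standard error), with 1 grey dash for each other setting. miR-181b-5p has the lowest value, -4.31, and all its dashes lie below 0.

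Among the 5p strands, miR-181a-5p was by far the most abundant. Its counts were 190, 147 and 321 in exosome libraries 1, 2 and unnumbered and 245285, 316260 and 102666 in fibroblast libraries 1, 2 and 4. These are 0.158% (exact 95% Clopper-Pearson interval 0.136 to 0.182), 0.130% (0.110 to 0.153) and 0.270% (0.241 to 0.301) of exosome counts, and 3.85%, 2.53% and 4.21% of fibroblast counts. The unnumbered library was the highest of the exosomes, and the groups did not overlap on this total. Among all 728 miRNAs it ranked 5, 5 and 4 in the fibroblast libraries and 15, 15 and 8 in the exosome libraries. At its mean fibroblast share, an exosome library of this depth would hold 3991 to 4241 of its reads, or 423 to 651 on the total without miR-873-3p. Without miR-873-3p in the total its exosome shares were 1.05%, 1.03% and 2.71% and its fibroblast shares 3.90%, 2.54% and 4.31%, so the unnumbered library passed fibroblast library 2. The log2 fold change was -3.63 (SE 1.52), which did not pass (edgeR adjusted p = 0.055). It passed without the unnumbered exosome library, without fibroblast library 2 and without fibroblast library 4 (log2 -5.05, -4.14 and -3.41, edgeR adjusted p = 0.0011, 0.0093 and 0.036), and lay between 1.2e-06 and 0.22 over 15 alternatives. In the authors' deposited table miR-181a-5p passed, with an adjusted p of 0.027 and a log2 ratio of -3.61 for exosomes over fibroblasts.

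miR-181b-5p, which shares its loci with miR-181a-5p, had 18, 21 and 33 counts in exosomes and 42036, 80663 and 14684 in fibroblasts. It made up 0.659%, 0.645% and 0.602% of fibroblast counts, the most even level of any member between those libraries, and 0.0150%, 0.0186% and 0.0277% of exosome counts. Without miR-873-3p in the total these were 0.668%, 0.647% and 0.617% of fibroblast and 0.0991%, 0.146% and 0.279% of exosome counts. The groups did not overlap on either total. Exosomes held 19.9-fold less of it (log2 fold change -4.31 with SE 1.17, adjusted p = 0.0017 by edgeR). This was the 1 member called under all 15 alternatives (adjusted p from 5.6e-10 to 0.041, log2 from -5.52 to -1.89), and the log2 of -5.52 was found without the unnumbered exosome library. It was also the member with the lowest adjusted p, 0.00096, in the authors' deposited table, where 2 of the 10 members (this and miR-181a-5p) and 7.28% of all miRNAs were lower at 0.05.

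miR-181c-5p and miR-181d-5p, from the pair on chromosome 19, were scarcer. miR-181c-5p had 11, 13 and 23 counts in exosomes and 6436, 11610 and 1165 in fibroblasts, and its fibroblast level was lowest in library 4, at 0.101%, 0.0928% and 0.0478% of counts. Its exosome level was 0.00915%, 0.0115% and 0.0193% of counts, or 0.0606%, 0.0907% and 0.195% without miR-873-3p, where fibroblasts had 0.102%, 0.0932% and 0.0489% and the groups overlapped. Its level in exosomes was 3.68-fold lower, a log2 fold change of -1.88 (SE 0.75) with an edgeR adjusted p of 0.042. The call was lost without exosome library 1, exosome library 2 or fibroblast library 1 (log2 -1.48, -1.94 and -1.61, edgeR adjusted p = 0.29, 0.18 and 0.088) and with miR-873-3p left out before TMM scaling (0.0502, just over the threshold), and the adjusted p lay between 3.7e-05 and 0.54 over all 15 alternatives. Without the unnumbered exosome library the log2 fold change was -3.11 (edgeR adjusted p = 0.0036). miR-181d-5p had 6, 5 and 5 counts in exosomes and 2066, 3576 and 538 in fibroblasts. The log2 fold change was -2.28 (SE 0.70), 4.87-fold lower in exosomes, with an edgeR adjusted p of 0.0063. Its call was lost without exosome library 1 or 2, with log2 fold changes of -2.14 and -2.39 (edgeR adjusted p = 0.069 and 0.066, between 0.00012 and 0.69 over the alternatives), and its exosome counts are so few that each library's level has a wide interval, for example 0.00183% to 0.0109% of counts in exosome library 1. It made up 0.00499%, 0.00442% and 0.00420% of exosome counts and 0.0324%, 0.0286% and 0.0221% of fibroblast counts. Without miR-873-3p in the total it made up 0.0330%, 0.0349% and 0.0423% of exosome counts and 0.0328%, 0.0287% and 0.0226% of fibroblast counts, with every exosome library above every fibroblast library. Neither passed in the authors' deposited table (adjusted p = 0.31 and 0.40).

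The 3p strands had 1 to 20 reads per exosome library. miR-181a-1-3p, the passenger strand made only by the chromosome 13 copy, had 5, 3 and 2 counts in exosomes and 776, 1847 and 1227 in fibroblasts. Its fibroblast level was highest in library 4, at 0.0503% of counts against 0.0122% and 0.0148% in libraries 1 and 2. With TMM scaling exosomes held 9.30-fold less of it (log2 fold change -3.22 with SE 0.75, adjusted p = 0.00026 by edgeR). In the authors' deposited table it did not pass, with an adjusted p of 0.94 and a log2 ratio of -3.12 for exosomes over fibroblasts. Without miR-873-3p in the total it made up 0.0275%, 0.0209% and 0.0169% of exosome counts. Fibroblasts then had 0.0123%, 0.0148% and 0.0515%, and the groups overlapped. At its mean fibroblast share on that total, an exosome library would hold 3.10 to 4.76 of its reads. Without fibroblast library 4 the log2 fold change was -1.75 and the call was lost (edgeR adjusted p = 0.053; between 8.3e-06 and 0.82 over the alternatives). The antisense entry miR-3570, chosen after its sequence and values were seen, had 4, 3 and 0 counts in exosomes and 109, 685 and 8 in fibroblasts, with no high value in fibroblast library 4 (log2 0.20, SE 0.94, edgeR adjusted p = 0.90). Whether counting used the strand is not given in the sources used here.

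miR-181a-2-3p, from the chromosome 3 copy, had 4, 2 and 2 counts in exosomes and 370, 1134 and 258 in fibroblasts (log2 -1.71, SE 0.74, edgeR adjusted p = 0.063). miR-181b-1-3p had 1, 1 and 3 counts in exosomes and 306, 878 and 78 in fibroblasts (log2 -1.33, SE 0.88, adjusted p = 0.27). Both passed without the unnumbered exosome library, at edgeR adjusted p = 0.033 and 0.040. miR-181b-2-3p had 3, 5 and 2 counts in exosomes and 115, 583 and 54 in fibroblasts (log2 0.39, SE 0.83, adjusted p = 0.78), turned to a log2 of -1.34 when the reads recovered from the deposited normalized table were tested instead (edgeR adjusted p = 0.39), and was the lowest member in every fibroblast library.

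Of all members, miR-181c-3p lay nearest to an even TMM-scaled level between the groups. It had 20, 12 and 5 counts in exosomes, highest in library 1 where miR-181c-5p was lowest, and 565, 2752 and 200 in fibroblasts. Its log2 fold change was 0.06 (SE 0.61, edgeR adjusted p = 0.95). At its mean fibroblast share an exosome library would hold 14.7 to 15.7 of its reads, or 1.56 to 2.39 on the total without miR-873-3p, where its 20, 12 and 5 reads lie above that number. miR-181d-3p had 13, 5 and 6 counts in exosomes and 935, 1489 and 443 in fibroblasts (log2 -0.98, SE 0.65, adjusted p = 0.27).

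The direction of miR-181d-3p turned with the input table. The normalized table is made of whole reads divided by 1 factor per library, and the reads behind it can be counted. For miR-181d-3p these reads were 194, 621 and 111 in the fibroblast libraries, 20.7%, 41.7% and 25.1% of the raw counts, and 8, 4 and 5 in the exosome libraries. With them its log2 fold change was 0.35 (edgeR adjusted p = 0.76; between 0.033 and 0.76 over the 15 alternatives). Of 722 miRNAs with 100 or more raw fibroblast reads, 4 kept under 50% of them in the normalized table, and the median kept 99.2%. The 5p strands kept 100% in each exosome library and at least 99.97% in each fibroblast library. miR-181b-1-3p and miR-181b-2-3p kept 3 of 5 and 3 of 10 exosome reads. With these reads 6 members were called lower, the 4 named and miR-181a-5p and miR-181a-2-3p (edgeR adjusted p = 0.024 and 0.027). Of all 694 miRNAs tested with them, 144 were called lower.

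**Figure D3:**
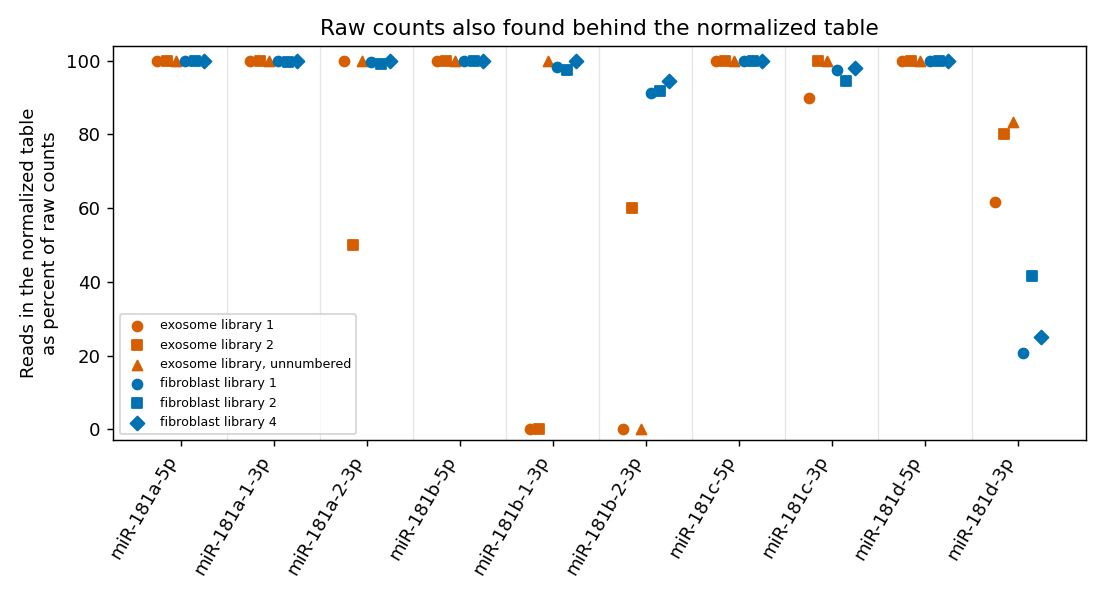
Reads found behind the deposited normalized table as a percent of the raw counts, for each member and library (exosomes orange, fibroblasts blue). The 5p strands sit at or near 100%, while miR-181d-3p lies between 20.7% and 41.7% in fibroblasts.

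The second comparison asked whether the balance of arms differed between exosomes and cells, a ratio within a library that does not depend on scaling between libraries. The 3p arm took a larger part of miR-181 reads in exosomes. Over the whole family, 3p counts were 17.0%, 13.1% and 4.98% of the reads of exosome libraries 1, 2 and unnumbered and 1.03%, 2.06% and 1.86% of those of fibroblast libraries 1, 2 and 4. The unnumbered library was the lowest exosome library, and it lay above the fibroblast range. The 2 copies of miR-181a and of miR-181b were summed for the test, since their 5p strand is one entry.

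miR-181b had 18.2%, 22.2% and 13.2% of its reads on the 3p arm in exosomes (4 of 22, 6 of 27 and 5 of 38 reads) and 0.992%, 1.78% and 0.891% in fibroblasts, with no overlap. The log2 change of 3p over 5p was 3.90 (edgeR's diffSpliceDGE, adjusted p = 1.4e-05). It was called under all 7 alternatives that tested it (adjusted p from 3.2e-06 to 0.013), with a change of 4.57 without the unnumbered exosome library. With the reads behind the normalized table the change was 2.84, and the exosome shares were 0%, 12.5% and 8.33%, so that exosome library 1 fell below the fibroblasts. That library's 0 of 18 reads allows a share of up to 16.7%.

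miR-181c had 64.5%, 48.0% and 17.9% of its reads on the 3p arm in exosomes and 8.07%, 19.2% and 14.7% in fibroblasts. In exosome library 1 the 3p strand outnumbered the 5p strand by 20 reads to 11, whereas the unnumbered library lay within the fibroblast range. The log2 change was 1.94 (edgeR's diffSpliceDGE, adjusted p = 0.045). The call was lost without exosome library 1 or 2 and without fibroblast library 1 or 4 (log2 change 1.22, 1.84, 1.60 and 2.22, adjusted p = 0.33, 0.17, 0.18 and 0.0502) and with no count filter (0.0615), and the adjusted p was 0.00075 at the lowest. Without the unnumbered exosome library the change was 3.15 (adjusted p = 0.0025).

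For miR-181d the 3p share was 68.4%, 50% and 54.5% in exosomes and 31.2%, 29.4% and 45.2% in fibroblasts, with no overlap but with only 10 to 19 exosome reads per library (log2 change 1.30, edgeR's diffSpliceDGE, adjusted p = 0.35). With the reads behind the normalized table the fibroblast share was 8.58% to 17.1%, the log2 change 2.78 and the adjusted p 0.012, and the range over all 10 alternatives was 0.012 to 0.63. For miR-181a the 3p share was 4.52%, 3.29% and 1.23% in exosomes and 0.465%, 0.934% and 1.43% in fibroblasts, with the unnumbered library inside the fibroblast range (log2 change 0.93, adjusted p = 0.36, 0.0018 to 0.77 over the alternatives). In all, 2 of 4 letters were called, where 33.8% of 269 miRNA names with both arms were called. Both called letters shifted to 3p in exosomes, and 17.8% of the 269 names were called with that shift. The share of names without overlap in the 3p share is not given here. With the reads behind the normalized table, a called difference was found for 3 of 4 letters, where 33.6% of 268 names were.

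**Figure D4:**
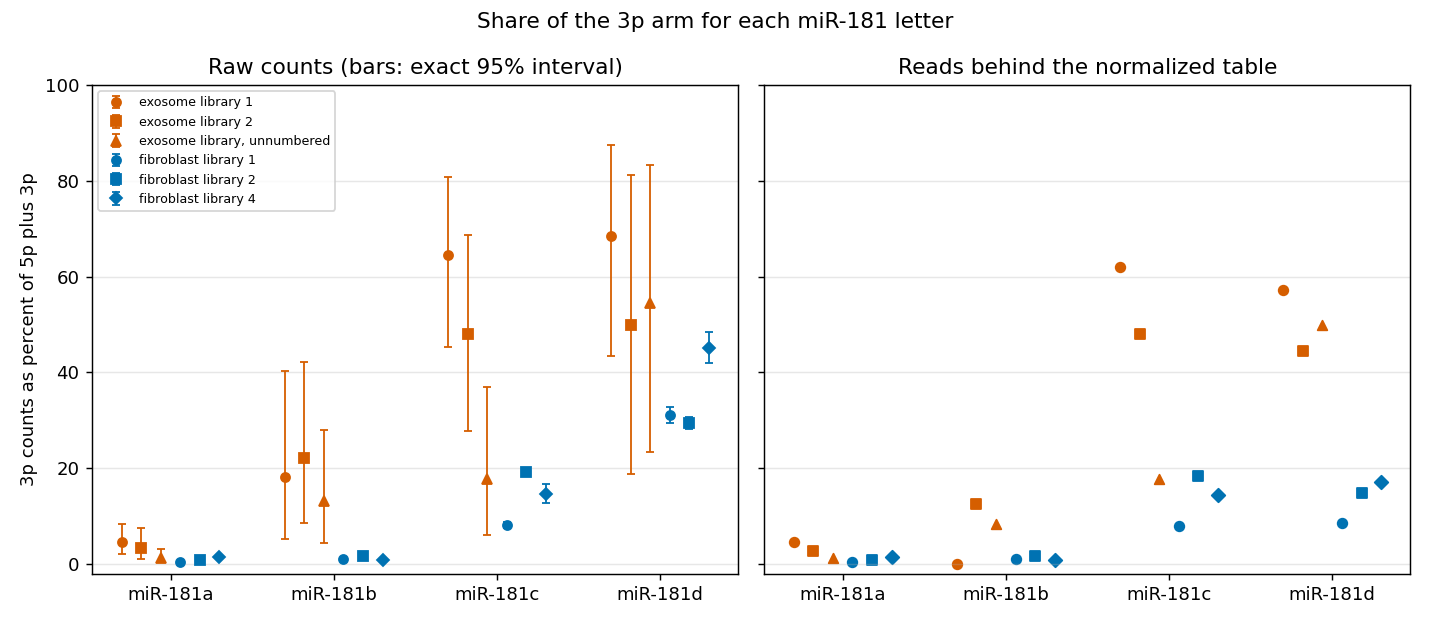
The 3p counts as a percent of 5p plus 3p counts for each miR-181 letter, 1 point per library (exosomes orange, fibroblasts blue), from raw counts with exact 95% intervals on the left and from the reads behind the normalized table on the right. For miR-181b and miR-181d all exosome points on the left lie above the fibroblast points, and on the right exosome library 1 is at 0 for miR-181b.

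The third comparison asked whether the 4 letters that share a seed kept their proportions. miR-181a-5p made up 84.4%, 79.0% and 84.0% of the 5p reads of the family in exosome libraries 1, 2 and unnumbered and 82.9%, 76.7% and 86.2% in fibroblast libraries 1, 2 and 4. The means were 82.5% ± 3.01 and 82.0% ± 4.82 (SD, n = 3 each), and the groups overlapped. miR-181b-5p made up 8%, 11.3% and 8.64% in exosomes and 14.2%, 19.6% and 12.3% in fibroblasts, with no overlap. miR-181c-5p made up 4.89%, 6.99% and 6.02% in exosomes and 2.18%, 2.82% and 0.979% in fibroblasts, and miR-181d-5p 2.67%, 2.69% and 1.31% and 0.698%, 0.868% and 0.452%, both higher in each exosome library. The share of all miRNAs in named families without overlap on this measure is not given here.

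Tested against the rest of the 5p family, 0 of the 4 letters passed (edgeR's diffSpliceDGE), where 5.08% of 177 miRNAs in named families were called, and 1 had an unadjusted p under 0.05. That was miR-181c-5p, with a relative log2 change of 1.24 (adjusted p = 0.23). The relative log2 changes of miR-181a-5p, miR-181b-5p and miR-181d-5p were 0.02, -0.45 and 0.96 (adjusted p = 1.00, 0.96 and 0.41). No other tool was run on this question.

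**Figure D5:**
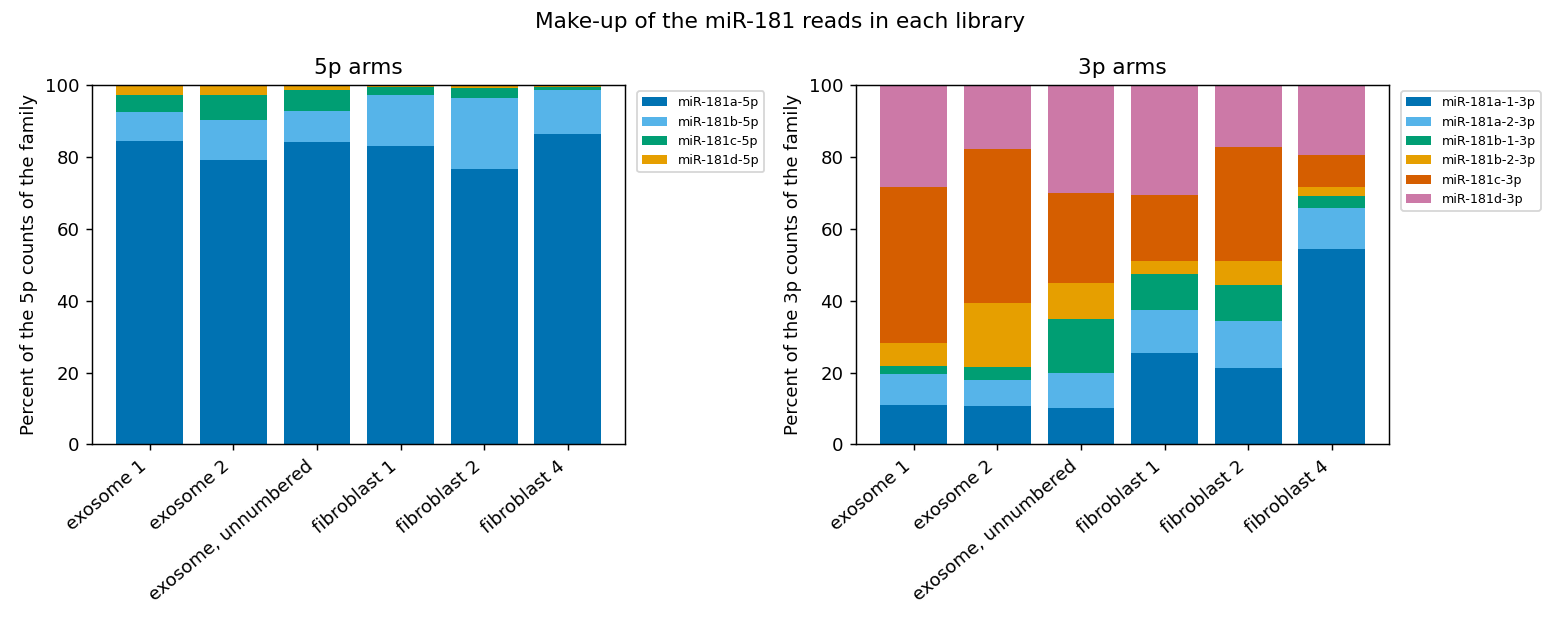
Stacked percent of the 5p reads (left) and of the 3p reads (right) of the family held by each member in each library. miR-181a-5p fills between 76.7% and 86.2% of every 5p bar, and miR-181c-3p with miR-181d-3p fills between 55% and 71.7% of the exosome 3p bars.

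The 3p entries, which unlike the 5p entries are named by copy, were divided among the 3 hairpin pairs as follows. miR-181a-1-3p of pair 1 and miR-181c-3p of pair 3 share their first 15 bases, and miR-181b-2-3p had no sequence to compare. The split is thus uncertain to the extent that the rule for assigning reads is not known. The pair of miR-181c and miR-181d gave 62.5% ± 8.51 of the 3p reads in exosomes and 42.1% ± 11.8 in fibroblasts (SD, n = 3 each). The ranges were 55% to 71.7% and 28.5% to 48.9%, and no like values for other families are given here. The chromosome 13 pair gave 17.4% ± 6.57 and 41.5% ± 14.2, and the chromosome 3 pair 20.1% ± 4.89 and 16.5% ± 3.04. These sums rest on 46, 28 and 20 exosome reads per library and were not tested. They use raw counts, of which miR-181d-3p kept 20.7% to 41.7% in the normalized table in fibroblasts, and were not repeated with the reads kept. Of the fibroblast 3p reads of miR-181a, copy 1 gave 67.7%, 62.0% and 82.6% in libraries 1, 2 and 4, with exact 95% intervals of 64.9 to 70.4, 60.2 to 63.7 and 80.6 to 84.5. Of those of miR-181b it gave 72.7%, 60.1% and 59.1%, with intervals of 68.2 to 76.9, 57.5 to 62.6 and 50.2 to 67.6. The copy on chromosome 13 was thus the larger source of 3p reads in each fibroblast library. In exosomes 10 of 18 miR-181a and 5 of 15 miR-181b 3p reads were from copy 1, shares of 55.6% (exact 95% interval 30.8 to 78.5) and 33.3% (11.8 to 61.6) that depth leaves wide. Of the reads behind the normalized table, miR-181b-1-3p and miR-181b-2-3p had 3 each in exosomes, so this miR-181b share also depends on the input.

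The cluster of miR-23a, miR-27a and miR-24-2 lies near miR-181c and miR-181d on the same chromosome in GRCr8, and of its 6 listed strands 4 were lower in exosomes and 1 was higher (edgeR, background 18.6% and 11.3%), with a median log2 fold change of -3.44 against -0.15 for all tested miRNAs. miR-23a-3p (log2 -4.46, SE 0.92, adjusted p = 2.8e-05) and miR-24-2-5p (log2 -4.54, SE 0.86, adjusted p = 6.6e-06) were lower, as were miR-27a-3p (log2 -3.64) and miR-24-3p (log2 -3.23), the latter also made by a second hairpin. Each of these log2 fold changes lay below those of miR-181c-5p and miR-181d-5p; the difference was not tested. miR-23a-5p, which had fewer counts than miR-23a-3p in each fibroblast library and more in each exosome library, was higher in exosomes (log2 2.84, SE 0.66, edgeR adjusted p = 0.00025), and miR-27a-5p did not pass (log2 -1.48, SE 0.65, adjusted p = 0.070). Of 5 miRNAs described in heart mitochondria, 3 of the 4 tested were lower, against 18.6% of all tested miRNAs. These were let-7b-5p (log2 -6.76, SE 1.21), miR-21-5p (log2 -5.23, SE 1.86) and miR-181c-5p, whose log2 of -1.88 was the smallest of these in size. miR-378a-3p did not pass (log2 -0.65, SE 0.63, edgeR adjusted p = 0.48), and miR-1-3p, with 0, 3 and 0 exosome counts, did not pass the count filter.

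The pattern of miR-181a-5p over the 6 libraries was most like that of miR-192-5p (Pearson's r of log2 CPM 0.996), let-7c-5p, miR-214-3p, miR-151-3p and miR-181d-5p (r = 0.993 each, n = 6 libraries that fall into 2 groups). miR-214-3p is a mesenchymal marker and let-7c-5p belongs to the let-7 family. Their log2 fold changes, -3.30, -4.38, -4.33, -3.86 and -2.28, share the sign of that of miR-181a-5p, which the choice by r fixes. Among the other family members r to miR-181a-5p was 0.986 for miR-181b-5p and 0.937 for miR-181c-5p, which ranked 18 and 65 by r among the miRNAs compared. Of the 3p strands, r was 0.933 for miR-181a-2-3p (rank 67), 0.886 for miR-181a-1-3p (rank 92), 0.840 for miR-181b-1-3p (rank 107) and 0.783 for miR-181d-3p (rank 138). It was -0.25 for miR-181b-2-3p (rank 445) and -0.33 for miR-181c-3p (rank 469).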

How the data were processed

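Small RNA libraries from 3 exosome and 3 fibroblast samples were analysed from deposited tables. The submitters' processing notes name CASAVA 1.8.2, cutadapt 1.2.1, DESeq and build rn5. Which aligner, counting rule and miRNA release were used is not given in the sources used here. The authors deposited raw counts per mature miRNA, which every main test used. Their deposited normalized table is a signal, counts divided by 1 factor per library: divided by the worth of 1 read, its values differ from integers by under 0.001, and the reads so recovered made up 99.3% to 99.8% of raw counts. Its entry named rest, 63.1% to 84.4% of its reads, names no miRNA; it was taken as reads outside listed miRNAs, which no header states, and was left out except where stated. Alternatives changed the scaling, the filter, the tool and the input table, or left out each library in turn. The authors' deposited comparison holds, per the file headers, mean normalized counts, a fold (ratio), its log2, and p-values before and after adjustment. That log2 equals that of fibroblast over exosome mean normalized counts.

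The main tests ran in R 4.3.3 with edgeR 4.0.16. Low miRNAs were removed by filterByExpr (30 of 728, with a minimum count of 10 and total of 15), TMM scaled the libraries, and the two-sided quasi-likelihood test on group covered all 698 miRNAs with Benjamini-Hochberg adjustment. SE is the log2 fold change over the square root of F. Arms and family members were compared with diffSpliceDGE, and DESeq2 1.42.0 was an alternative. Scripts were tested on simulated counts. All 10 members are named, with the members of 2 lists, cell type markers and the 5 miRNAs with the highest r to miR-181a-5p (log2 CPM, prior count 2). Members and lists were chosen with earlier results of these data known. The limit that 0 reads allow, 3 counts of the total, is 0.00250% to 0.00265% of exosome and 2.4e-05% to 0.000123% of fibroblast counts. Such limits and the intervals hold counting error alone, because PCR copies of a molecule are counted as separate reads. Libraries of the same group differed beyond sampling noise, with chi-square over its degrees of freedom from 3.54 to 621. RefSeq sequences (GRCr8) were found for 9 of 10 members by name.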

Additional observations from a re-analysis of the deposited data

How the results depend on the processing

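The 4 members called lower by edgeR became 7 with library sizes that include the reads outside listed miRNAs, and 1 with total counts lacking miR-873-3p and no TMM, where 2 were higher and miR-181c-5p and miR-181d-5p turned to log2 fold changes of 0.48 and 0.38; both settings were chosen after seeing the data. With total counts, TMM without miR-873-3p, DESeq2, no count filter and the reads behind the normalized table, 3 to 6 members were lower and 0 higher. Leaving out each library in turn gave 2 to 7 members lower, with 2 without exosome library 1 or 2 and 7 without the unnumbered one, and 0 to 2 letters with a called arm difference. Of all tested miRNAs, 86 of 720, 88 of 724 and 140 of 725 were lower without exosome library 1, 2 and the unnumbered one. Without fibroblast library 1, 2 or 4, 109 of 402, 121 of 359 and 120 of 414 were lower. Only 8, 7 and 7 members passed the count filter there. Without a fibroblast library the 3p arms of miR-181b did not pass the filter and could not be tested. With no count filter 1 letter had a called arm difference. The family share of exosome counts moved from 0.251% to 2.13% with miR-873-3p left out of the total. No letter was called against the rest of the 5p family under any alternative run. Calls over all miRNAs split into 130 lower and 79 higher, 121 and 43 with total counts, 117 and 105 with TMM without miR-873-3p, 196 and 37 with the reads outside listed miRNAs in the library sizes, and 36 and 377 with total counts lacking miR-873-3p. Their median log2 fold change was -0.15, -0.57, 0.20, -0.95 and 2.37. With the replicate number as a block, on libraries 1 and 2 of both groups, 5 members were lower and 3 letters had a called arm difference, against 6 and 3 on the same libraries without the block. Of all 724 miRNAs tested in these fits, 142 were lower with the block and 146 without it. The share of all names with a called arm difference is not given for these fits, for the fit with no count filter or for those without 1 library. In the main fit it was 33.8% of 269 names, so these counts of letters cannot be read as particular to miR-181. Deviations of same-numbered libraries from their group means correlated at -0.07 and 0.16 across miRNAs. Those of exosome library 1 with fibroblast library 2 correlated at 0.21, and of exosome library 2 with fibroblast library 1 at -0.007. With so few libraries and such shallow exosome counts, these values cannot decide whether the samples are paired. The cause of the changes between settings was not tested. Exosome depth limits the scarce members, with 5 or 6 reads per library for miR-181d-5p and 20 to 46 for the 3p strands together.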
